A study of Mus musculus with 6 samples.

Results

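Small leucine-rich proteoglycans and matrix Gla protein (Mgp) were followed on 6 Affymetrix arrays of mouse brain lesions. The set held 9 genes of 22180 that had a probe set with exactly 1 gene symbol. These were Dcn, Lum, Bgn, Ogn, Omd, Aspn, Fmod and Prelp, which belong to the proteoglycan family, and Mgp, which does not. Dcn and Mgp entered the set because transgenic and wild type lesions differed in them with some of the smallest p-values on these same arrays, and the others entered as known relatives of Dcn. The comparison between the groups is therefore given for the 9 genes as a description, with no test. All 9 were measured, each read from its brightest probe set over the 6 arrays.

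Wild type and transgenic mice aged 5 to 6 weeks received an LPC lesion, which strips myelin locally, and an injection of CID 48 hours later. LPC and CID were thus common to both groups. In the transgenic mice CID sets off apoptosis in GFAP+ astrocytes that are not dividing. Lesions were macrodissected 7 days after the lesion, and 3 wild type and 3 transgenic lesions were each hybridised to 1 array. The labels name neither the strain nor the construct that drives the transgene, and do not say whether each lesion had an animal of its own, so the errors and p-values cover the spread between lesions, which may be technical. Levels are log2 RMA intensities, always listed in the order of replicates 1, 2 and 3, differences are transgenic minus wild type on the log2 scale, and the level of one probe set is not comparable with that of another.

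Small leucine-rich proteoglycans are secreted proteins built from a short run of leucine-rich repeats, most of them carrying chondroitin, dermatan or keratan sulfate chains. They coat collagen fibrils and set their spacing, and several also bind growth factors such as TGF-beta or receptors on the cell surface. MGP is a small secreted protein that needs vitamin K-dependent carboxylation, keeps soft tissue free of mineral and binds BMP ligands. In the brain several of their transcripts are known from the leptomeninges and from cells around blood vessels.

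On the whole arrays no probe set of 41345 passed an adjusted p of 0.05 in limma, while 3668 (8.87%) had an unadjusted p under 0.05. The smallest adjusted p was 0.213. Probe sets varied more among transgenic lesions (median SD 0.26) than among wild type lesions (0.15). Gfap, whose cells were targeted, lay between 9.09 and 9.83 in wild type lesions, while the transgenic range of 8.82 to 9.24 overlapped it. Xist, expressed from the inactive X chromosome of females, stood at 9.14 to 9.49 on the wild type arrays and transgenic replicate 2 and at 4.42 and 4.67 on transgenic replicates 3 and 1. The Y-linked Eif2s3y stood at 6.80 and 7.03 on those last arrays and at 2.55 to 3.32 on the rest. The labels used here gave no sex, so arrays with high Xist are called female and those with low Xist male. Markers of striatal neurons had a mean level of 8.16 and 8.79 in wild type replicates 2 and 3 and of 5.99 to 6.53 on the other 4 arrays. Xist levels thus split the transgenic lesions and striatal markers the wild type lesions, so values by array are given beside the results.

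Of the 9 genes, 7 had a higher mean in transgenic lesions and 2 a lower one, with a median difference of 0.64. That median was 0.38 among the female arrays or with sex as a covariate, 0.41 on the log2(value + 16) scale and 0.26 over the 5 genes brighter than the median probe set. Every transgenic array lay above every wild type array for Dcn, Mgp, Ogn, Lum and Omd, and below for Prelp. The same separation was seen in 16.1% of all probe sets, 8.54% with transgenic lesions higher and 7.6% with them lower. Dcn and Mgp were chosen on this comparison and the others as known relatives of Dcn. Nothing is therefore read from the count of 6 in 9 against that share. Fmod, Bgn and Aspn overlapped between the groups. The median difference of all probe sets was -0.01.

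**Figure D1:**
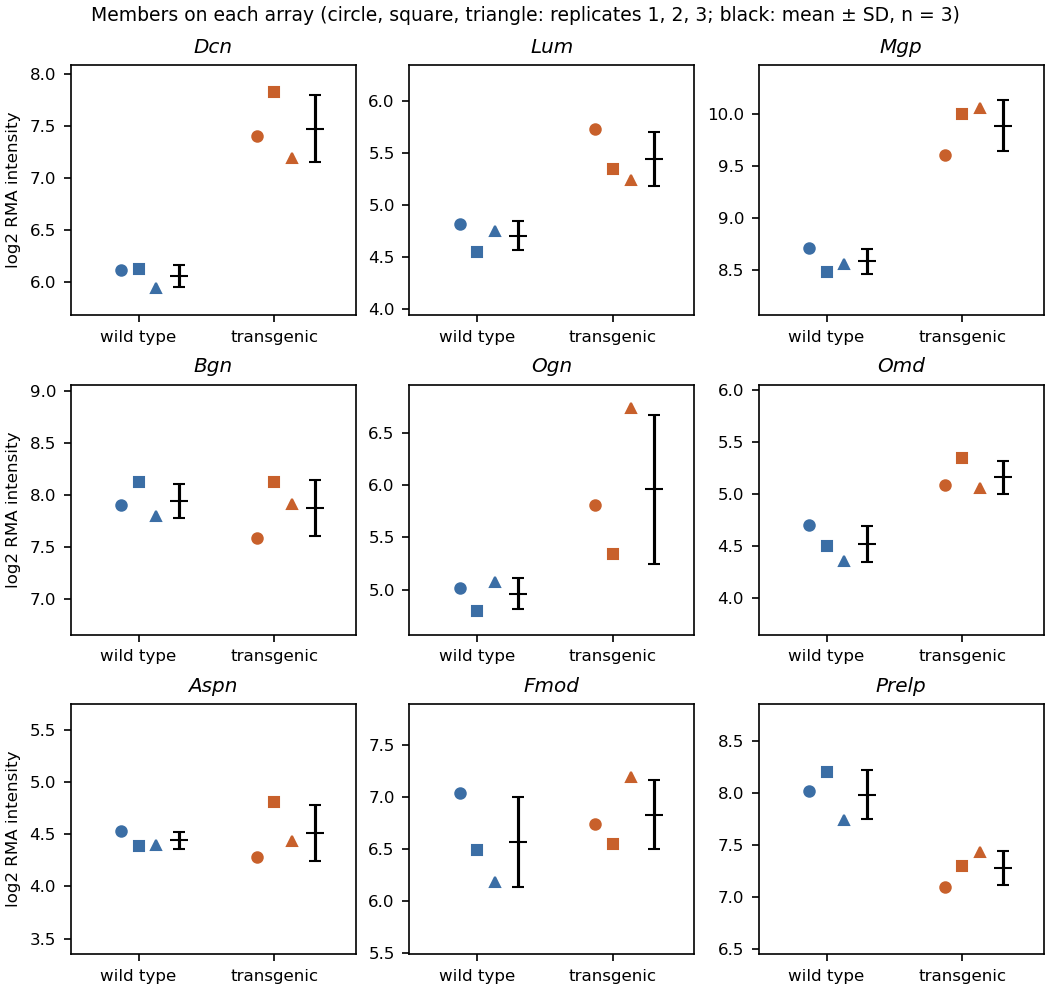
Log2 RMA intensity of the 9 genes on each array, with wild type at the left and transgenic at the right of each panel; circles, squares and triangles are replicates 1, 2 and 3, black bars are the mean ± SD (n = 3), and every panel spans the same log2 range. The groups are apart for Dcn, Lum, Mgp, Ogn, Omd and Prelp and overlap for Bgn, Aspn and Fmod.

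Decorin (Dcn), a class I member that carries a single glycosaminoglycan chain and binds fibrillar collagen and TGF-beta, showed the widest separation of the set. Its wild type levels were 6.11, 6.12 and 5.94 and its transgenic levels 7.40, 7.82 and 7.19. The lowest transgenic array was 1.07 above the highest wild type array. The means were 6.06 ± 0.10 and 7.47 ± 0.32 (SD, n = 3), a difference of 1.41 (SE 0.19) or 2.67-fold. Dcn was highest in transgenic replicate 2, the female array of that group. Among the 4 female arrays, with a lone transgenic lesion, the difference was 1.77.

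Mgp separated in the same way. Its wild type levels were 8.72, 8.48 and 8.56, against transgenic levels of 9.60, 10.004 and 10.06. The lowest transgenic array was 0.89 above the highest wild type array. The means were 8.58 ± 0.12 and 9.89 ± 0.25 (SD, n = 3), a difference of 1.30 (SE 0.17) or 2.47-fold. Unlike Dcn, which was lowest among the transgenic lesions in replicate 3, Mgp was highest there.

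Lumican (Lum), a class II keratan sulfate proteoglycan that sets collagen fibril diameter in cornea and skin, had wild type levels of 4.82, 4.55 and 4.75. Its transgenic levels were 5.73, 5.34 and 5.24. The groups did not overlap, and replicate 1 was the highest of the transgenic lesions. The difference was 0.73 (SE 0.18), or 1.66-fold. These are dim values: only 2 of the 6 arrays had Lum above the median of the array, which lay between 5.34 and 5.59, and no detection calls were among the data used here.

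Osteoglycin (Ogn), a class III member also called mimecan, varied most among transgenic lesions. The wild type lesions gave 5.01, 4.79 and 5.07 and the transgenic lesions 5.81, 5.34 and 6.74. The transgenic arrays spanned 1.40 and the wild type arrays 0.28, and the nearest arrays of the groups were 0.26 apart. The difference was 1.001 (SE 0.34), or 2.002-fold. Without transgenic replicate 3 it was 0.61, and among the female arrays it was 0.38, so its size rested largely on that replicate.

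Osteomodulin (Omd), a class II member best known from bone, had wild type levels of 4.70, 4.50 and 4.36. The transgenic lesions gave 5.08, 5.34 and 5.06, all above the wild type lesions. The difference was 0.64 (SE 0.16), or 1.56-fold. Omd exceeded the array median on 1 array only, transgenic replicate 2, which had the lowest median.

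Prelp, a class II member thought to anchor basement membranes to collagen, went the other way. Its levels of 8.02, 8.20 and 7.74 in wild type compared with 7.10, 7.30 and 7.44 in transgenic lesions. The highest transgenic array was 0.30 below the lowest wild type array. The difference was -0.71 (SE 0.18), or 1.63-fold lower in transgenic lesions. A second probe set of Prelp gave 6.28, 6.44 and 6.37 against 6.08, 5.71 and 5.85, a difference of -0.48 (SE 0.15) with groups that again did not overlap. Markers of myelinating oligodendrocytes moved with Prelp: all 9 measured were lower, at a median difference of -0.84, with a mean level of 9.35 to 9.78 on wild type arrays against 8.43 to 8.93 on transgenic arrays. Their part in the Prelp difference was not tested.

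The remaining members overlapped between the groups. Fibromodulin (Fmod), a class II member that binds collagen in tendon and cartilage, had wild type levels of 7.03, 6.48 and 6.18 and transgenic levels of 6.74, 6.55 and 7.19, with the top of both groups close together. Its difference of 0.26 (SE 0.26) was no larger than its error, and its second probe set gave 0.27 (SE 0.31). Against wild type replicate 1 alone it turned to -0.21, and among the female arrays to -0.02.

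Biglycan (Bgn), the closest relative of decorin and a ligand of the innate receptors TLR2 and TLR4, had wild type levels of 7.90, 8.13 and 7.80. The transgenic lesions spread around these at 7.59, 8.12 and 7.91. Its difference was -0.07 (SE 0.18) and that of its second probe set -0.21 (SE 0.21). Bgn lies on the X chromosome, and the transgenic male arrays are replicates 1 and 3, while its highest transgenic value was in the female replicate 2. Among the female arrays the difference was 0.18.

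Asporin (Aspn), a class I member with a run of aspartate near its amino end, was dim on every array. Wild type lesions gave 4.54, 4.39 and 4.40 and transgenic lesions 4.29, 4.81 and 4.44. The transgenic arrays lay on both sides of the wild type arrays. The difference was 0.07 (SE 0.17), and 0 of 6 arrays had Aspn above the array median. A difference in Aspn may thus have been below what the arrays could measure.

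Members of a class did not share a difference. Class I held Dcn at 1.41 beside Bgn at -0.07 and Aspn at 0.07. Class II held Lum at 0.73 and Omd at 0.64 beside Fmod at 0.26 and Prelp at -0.71. The members also did not share an order among the transgenic lesions: 4 were highest in replicate 2, 4 in replicate 3 and 1 in replicate 1. The SD was larger in transgenic than in wild type lesions for 6 of the 9.

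**Figure D2:**
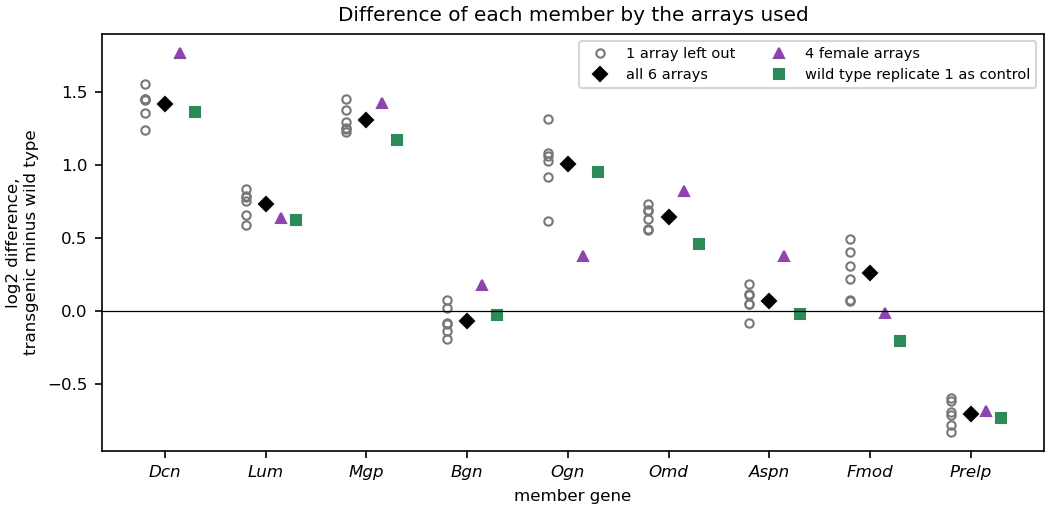
Log2 difference, transgenic minus wild type, of each gene with all 6 arrays (diamonds), with 1 array left out (open circles), among the 4 female arrays (triangles) and with wild type replicate 1 as the only control (squares). Dcn, Mgp, Lum, Ogn and Omd stay above 0 and Prelp below 0 in each of these, while Bgn, Aspn and Fmod cross 0. The groups do not overlap for the genes that keep their sign, so no subset of the arrays could have turned it. Only the sizes of their differences could change.

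Wild type replicate 1 had striatal markers at 5.99, near the 6.11 to 6.53 of the transgenic lesions, but microglia markers at 8.57 against 7.44 to 7.65 on the other 5 arrays, so it is no matched control. Against that array alone the differences were 1.36 for Dcn, 1.17 for Mgp, 0.62 for Lum, 0.95 for Ogn, 0.46 for Omd and -0.74 for Prelp. This single control was chosen after the values were seen, and the part of the striatal transcripts in the differences was not tested. Leaving out any single array kept Dcn between 1.24 and 1.55, Mgp between 1.22 and 1.45, Lum between 0.59 and 0.83 and Prelp between -0.83 and -0.60. In transgenic replicates 1 and 3 sex and genotype cannot be told apart, and the female comparison rests on 1 transgenic array. With sex as a covariate the fit likewise rests on that array and gave 1.77 for Dcn, 1.42 for Mgp and 0.64 for Lum.

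Most of the family lies in gene clusters, and the measured differences within a cluster were unlike in size or sign. By the gene order of RefSeq (GRCm38.p6), Dcn, Lum, Kera and Epyc are adjacent protein-coding genes on chromosome 10. Dcn differed by 1.41 and Lum by 0.73. Kera, the corneal keratocan, differed by 0.15 (SE 0.13), also with every transgenic array higher. Epyc, the cartilage proteoglycan epiphycan, differed by -0.24 (SE 0.33). On chromosome 13 the order is Ecm2, Aspn, Omd, Ogn: Omd differed by 0.64 and Ogn by 1.001, whereas Ecm2 differed by 0.06 (SE 0.13) and Aspn by 0.07. Kera, Ecm2 and Aspn lay below the array median on every array. Differences in these dim genes may have been below what the arrays could measure. On chromosome 1 the order is Optc, Prelp, Fmod, with differences of 0.04, -0.71 and 0.26. The nearest measured genes outside the clusters, taken by position after the members' values were known, were Btg1 (-0.21) and Ccer1 (-0.05), Cenpp (-0.08) and Nol8 (0.19), and Atp2b4 (-0.45) and Btg2 (0.15). Of these flanking genes only Nol8 did not overlap between the groups, with every transgenic array higher. Mgp lies on chromosome 6 between Art4 (-0.06) and Erp27 (-0.01).

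**Figure D3:**
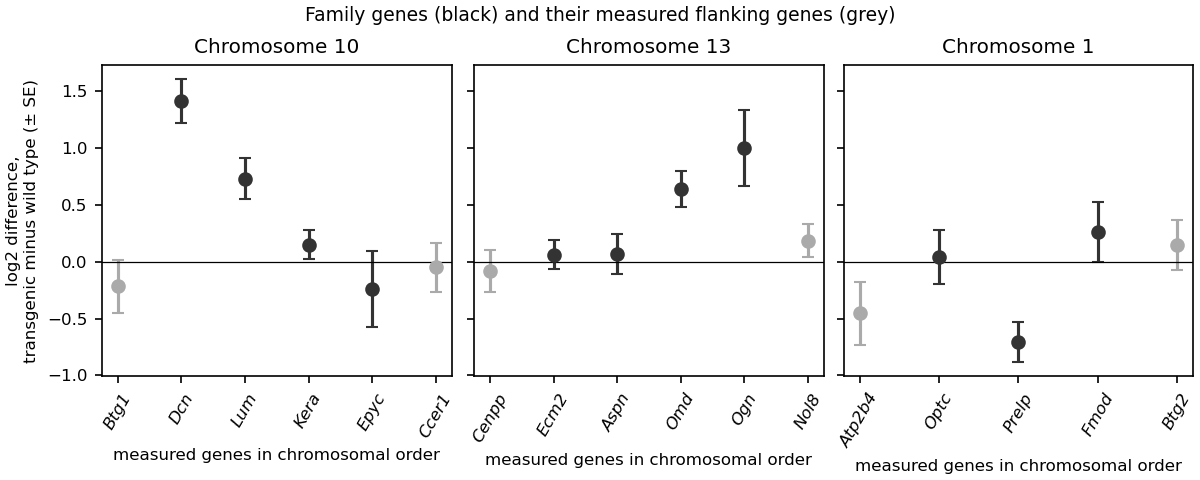
Log2 difference, transgenic minus wild type, with its SE, for measured genes in chromosomal order (not to scale) at the clusters of chromosomes 10, 13 and 1; family genes are black and flanking genes grey. Dcn (1.41), Lum (0.73), Omd (0.64) and Ogn (1.001) lie above 0, Prelp (-0.71) lies below 0, and flanking genes lie between -0.45 and 0.19.

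The promoters of the adjacent chromosome 13 genes are shown because Omd and Ogn were apart between the groups and Aspn was not, and that of Prelp because it was the member that was lower. RefSeq promoter windows matched 6 of the 9 members. The 250 bases before each gene's start (build GRCm38.p6) are Aspn at chr13:49544193-49544442, Omd at chr13:49582212-49582461 and Ogn at chr13:49607765-49608014, on the plus strand, and Prelp at chr1:133921402-133921651, on the minus strand. Sequences run 5′ to 3′ on the gene's strand, and capitals mark the TATA box TATAAA on either strand.
Aspn: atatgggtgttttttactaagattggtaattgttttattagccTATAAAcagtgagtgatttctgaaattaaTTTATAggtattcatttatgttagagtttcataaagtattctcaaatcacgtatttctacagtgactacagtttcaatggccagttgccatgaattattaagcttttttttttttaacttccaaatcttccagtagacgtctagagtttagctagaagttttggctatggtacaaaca
Omd: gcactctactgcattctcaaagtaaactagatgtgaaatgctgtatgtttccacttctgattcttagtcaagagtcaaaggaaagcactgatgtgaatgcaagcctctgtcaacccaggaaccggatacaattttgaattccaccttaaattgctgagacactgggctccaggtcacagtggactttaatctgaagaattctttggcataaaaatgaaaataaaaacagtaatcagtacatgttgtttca
Ogn: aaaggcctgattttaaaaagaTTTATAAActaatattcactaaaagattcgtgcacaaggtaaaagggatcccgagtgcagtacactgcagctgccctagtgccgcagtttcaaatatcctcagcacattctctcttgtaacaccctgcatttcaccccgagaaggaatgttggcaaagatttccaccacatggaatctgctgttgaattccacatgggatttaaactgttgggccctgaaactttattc
Prelp: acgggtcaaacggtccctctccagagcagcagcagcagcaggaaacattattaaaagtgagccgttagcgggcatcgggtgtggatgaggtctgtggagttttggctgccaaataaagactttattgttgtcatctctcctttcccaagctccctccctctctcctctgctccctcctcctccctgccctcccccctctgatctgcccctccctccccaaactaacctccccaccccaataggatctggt

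These windows differ in base composition, with 30% G and C for Aspn, 38.4% for Omd, 42% for Ogn and 55.6% for Prelp, against a median of 52.4% over 32851 promoter windows. TATAAA occurred in Aspn at 207 and 178 bases before the start. In Ogn it occurred at 229 and 227, as overlapping matches on opposite strands. No match was in the windows of Omd or Prelp. The motif is found in 12.4% of all windows of this length. The GC box GGGCGG, present in 32.7% of windows, was found among the members in Bgn only, at 34, 10 and 6 bases before the start. The AP-1 site TGANTCA (6.75% of windows) and the CAGA box CAGACA (17.1%), which Smad proteins bind, had no match in the 6 windows. Both strands were searched for each motif, and a match is a description of letters only.

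Differences of the other genes of the proteoglycan family lay between -0.33 and 0.15. Of 10 listed, 9 were measured: 4 had a higher mean and 5 a lower one, with a median difference of -0.10. The list was dim, with a mean level of 5.03 to 5.34 by array, below the median of each array. Differences may thus have been below what the arrays could measure. Kera was the 1 whose groups did not overlap, at 4.30, 4.26 and 4.23 against transgenic levels of 4.41, 4.47 and 4.36. Podn, podocan of smooth muscle matrix, differed by -0.33 (SE 0.22). In limma 0 of the 9 passed at an adjusted p of 0.05 and 0 at an unadjusted p under 0.05.

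Enzymes that build the sugar chains had small list medians, whose sign was not stable. The chondroitin and dermatan sulfate median changed sign in 9 of 16 alternatives, ranged from -0.08 to 0.20 and was 0.14 without transgenic replicate 1. The keratan sulfate median changed sign in 8 of 16 and ranged from -0.09 to 0.10. In the chondroitin and dermatan sulfate list 9 of 20 measured genes were higher and 11 lower, with a median of -0.03. Chsy3, which polymerises chondroitin, differed by 0.34 (SE 0.15), the sulfotransferase Chst3 by 0.33 (SE 0.17) and Chpf, which aids polymerisation, by 0.27 (SE 0.17). The groups did not overlap for Chsy3 and Chst3. Xylt1, which starts the chain, differed by -0.04 and Dse, which makes dermatan from chondroitin, by 0.11. In the keratan sulfate list 5 of 7 were higher, at a median of 0.01, with B3gnt2 at -0.23, B4galt1 at -0.30 and Chst5 at 0.09. In both lists limma called 0 genes at an adjusted p of 0.05 and 0 at an unadjusted p under 0.05.

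Among the collagens that these proteoglycans coat, the chains of type I collagen peaked in 1 wild type array. In the list of fibrillar collagens and partners 3 of 13 were higher and 10 lower, with a median of -0.05. Col1a2, a chain of type I collagen, had wild type levels of 6.56, 8.76 and 6.48 and transgenic levels of 8.05, 7.68 and 7.76. Wild type replicate 2 was thus the highest array for Col1a2, and Col1a1 was also highest there at 7.96, against 6.46 to 6.92 elsewhere, whereas Dcn in that array was 6.12, like the other wild type lesions. For Col1a1 and Col1a2 every transgenic array lay above wild type replicates 1 and 3, so replicate 2 alone made their groups overlap. Col6a1, a chain of beaded-filament collagen, differed by -0.55 (SE 0.21) and did not overlap, Col11a1 differed by -0.20 (SE 0.13) and Col6a3 by -0.19 (SE 0.14). In limma 0 passed at the adjusted threshold and 1, Col6a1, at an unadjusted p under 0.05.

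Genes of collagen processing were lower in 9 of 13, with a median of -0.07. P4ha1, a subunit of prolyl hydroxylase, differed by -0.55 (SE 0.18) and the lysyl hydroxylase Plod1 by -0.56 (SE 0.24), while the collagen chaperone Serpinh1 differed by 0.29 (SE 0.13). Proteases that cut small leucine-rich proteoglycans were lower in 8 of 9, at a median of -0.17. Adamts4, an aggrecanase, had wild type levels of 7.10, 6.83 and 6.85 and transgenic levels of 5.93, 6.34 and 6.61, a difference of -0.63 (SE 0.20). Adamts1 differed by -0.35 and the membrane protease Mmp14 by -0.26, and neither overlapped between the groups. In limma 0 genes of these lists passed at the adjusted threshold, and P4ha1, Plod1 and Adamts4 had an unadjusted p under 0.05.

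**Figure D4:**
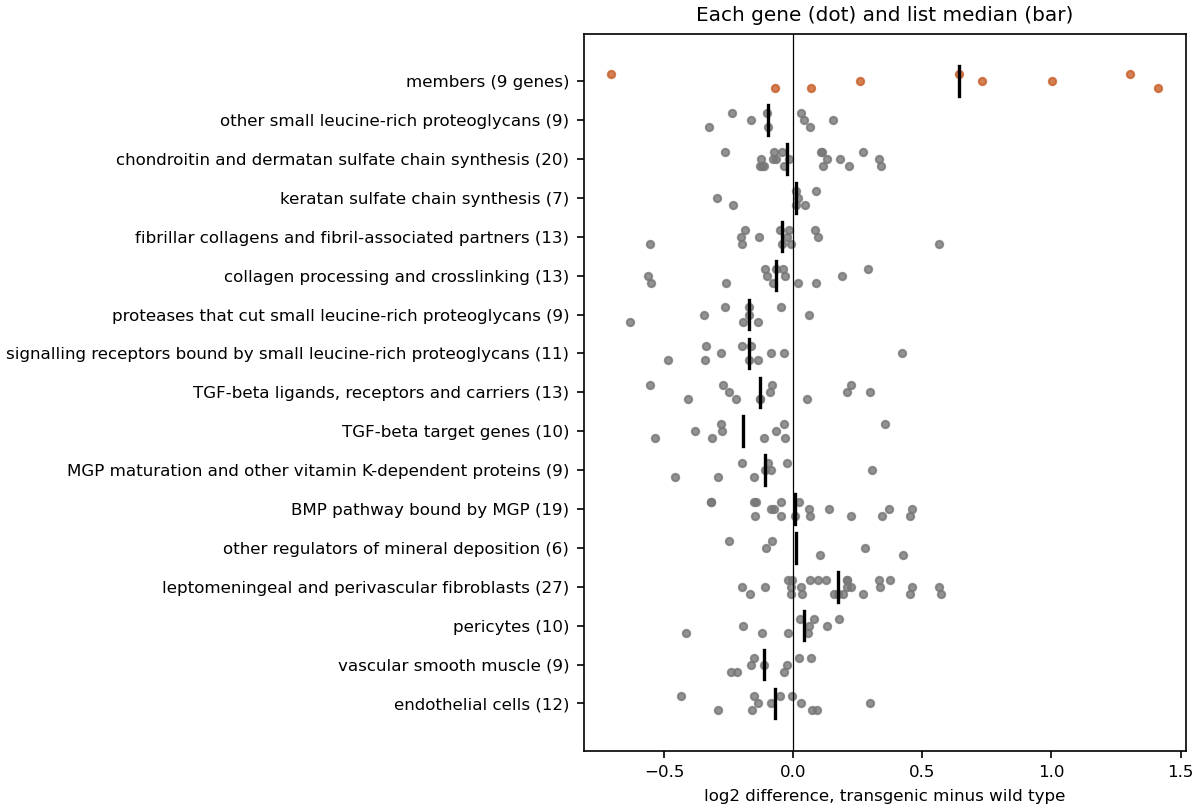
Log2 difference, transgenic minus wild type, of each gene (dots) and the median (bars) of the 9 members, the 12 pathway lists and 4 lists of stromal and vascular cell markers, with the number of measured genes in brackets; dots are offset vertically for legibility. The median of the members is 0.64, and those of the other lists shown lie between -0.20 and 0.17. Dcn and Mgp were chosen on this same comparison, so nothing is read from that contrast. Lists not shown had medians from -1.48 (striatal neurons) to 1.98 (sex-linked transcripts), with -0.84 for myelinating oligodendrocytes.

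Receptors bound by the proteoglycans and genes of TGF-beta signalling were mostly lower in mean. Of 11 receptors 10 were lower, at a median of -0.17: P2rx7, the ATP-gated channel that biglycan engages, differed by -0.48 (SE 0.18) and the endocytic receptor Lrp1 by -0.34, both without overlap. Met, the HGF receptor that decorin binds, was the exception at 0.42 (SE 0.20), with 6.29, 6.24 and 6.08 in wild type against 6.37, 6.50 and 7.01 in transgenic lesions. Egfr differed by -0.20, Tlr2 by -0.17 and Tlr4 by -0.04. Tlr2 was highest in wild type replicate 1, with 6.30, 5.31 and 5.21 in wild type against 5.89, 5.44 and 4.98 in transgenic lesions. In the list of TGF-beta ligands, receptors and carriers 9 of 13 were lower (median -0.13), with Smad4 at -0.41 (SE 0.14), Tgfbr1 at -0.56 (SE 0.34) and Smad3 at 0.30 (SE 0.17). The ligands themselves were mixed, with Tgfb1 at -0.25 (SE 0.29), Tgfb2 at 0.22 (SE 0.17) and Tgfb3 at -0.13 (SE 0.15). The size of the Tgfbr1 difference rested largely on wild type replicate 1. Its wild type levels were 8.04, 7.15 and 6.61 and its transgenic levels 6.83, 6.665 and 6.63. Of TGF-beta target genes 9 of 10 were lower (median -0.20), among them the feedback inhibitors Smad7 at -0.54 (SE 0.19) and Pmepa1 at -0.28 (SE 0.14), which did not overlap, and Ccn1 at -0.38 (SE 0.19). Without wild type replicate 1 the medians were -0.15 for the receptors, -0.09 for the TGF-beta ligands, receptors and carriers and -0.15 for the target genes. In limma 0 passed at the adjusted threshold, and in each list 1 had an unadjusted p under 0.05: P2rx7, Smad4 and Smad7.

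Genes that act with Mgp had smaller differences, between -0.46 and 0.46. Of 9 genes of MGP maturation and other vitamin K-dependent proteins 8 were lower, at a median of -0.11, with Ggcx, the carboxylase, at -0.10 (SE 0.14), Vkorc1, which recycles vitamin K, at 0.30 (SE 0.20), Vkorc1l1 at -0.20 and the Gla protein Prrg1 at -0.46 (SE 0.26). In the BMP list 10 of 19 were higher, at a median of 0.01. Id2, a BMP target, differed by 0.45 (SE 0.15) without overlap, the antagonist Chrd by 0.46 (SE 0.19), Bmp6 by -0.32 (SE 0.14), Bmp2 by 0.14 and Bmp4 by -0.05. Among other regulators of mineral deposition 3 of 6 were higher (median 0.01), with Tnfrsf11b, the decoy receptor osteoprotegerin, at 0.43 (SE 0.17) without overlap, Alpl at 0.28 and Slc20a2 at -0.25. In limma 0 of these genes passed at the adjusted threshold, and Id2, Chrd and Tnfrsf11b had an unadjusted p under 0.05.

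Markers of leptomeningeal and perivascular fibroblasts, cells known to make decorin, had a median difference of 0.17. It was 0.11 without transgenic replicate 2 and 0.069 among the female arrays or with sex as a covariate. Of 27 measured, 20 had a higher mean and 7 a lower one, and 3 did not overlap between the groups, all of them higher, beside 16.1% of all probe sets without overlap and 8.54% without overlap and higher. Their mean level was 5.90, 5.95 and 5.77 in wild type against 6.02, 5.99 and 6.11 in transgenic lesions. Their summed linear intensity overlapped, at 1809, 2215 and 1662 in wild type against 2099, 2026 and 2182 in transgenic lesions. That overlap came from wild type replicate 2 alone, the array where Col1a2 (8.76) and Col1a1 (7.96) were highest. The sums of wild type replicates 1 and 3 lay below every transgenic array. Foxc2, a transcription factor of the meninges, differed by 0.57 (SE 0.16), Nupr1 by 0.46 (SE 0.16) and the transporter Slc6a20a by 0.37 (SE 0.16). Of markers named after their values were seen, Col1a2 differed by 0.56 (SE 0.57), Aldh1a2, the retinoic acid enzyme of the meninges, by 0.45 (SE 0.21), Crabp2 by 0.34 (SE 0.21), Osr1 by 0.33 (SE 0.20) and Slc47a1 by 0.27 (SE 0.18). By unadjusted p in limma the last 4 came directly after Slc6a20a in the list. The largest differences the other way, among the 7 lower markers, were -0.20 (SE 0.37) for Col1a1, -0.17 (SE 0.14) for Fbln1 and -0.11 (SE 0.17) for Slc13a3. Lama1, Col3a1 and Slc6a13 differed by -0.02, -0.01 and -0.0053 and are among the 4 smallest differences of the list. RMA values have no 0, so no marker can be read as absent. In limma 0 passed at the adjusted threshold and Foxc2, Nupr1 and Slc6a20a at an unadjusted p under 0.05, 3 of 27 beside 8.87% of all probe sets. The part of these cells in the Dcn and Mgp differences was not tested, and in bulk lesions more cells of a type cannot be told apart from more RNA per cell.

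Marker lists of the vessel wall and ventricle had medians from -0.31 to 0.04. Pericyte markers were higher in 6 of 10 (median 0.04), smooth muscle markers in 2 of 9 (-0.11), endothelial markers in 4 of 12 (-0.07), choroid plexus markers in 3 of 9 (-0.04) and ependymal markers in 2 of 8 (-0.31). Border macrophage markers were higher in 3 of 9 (-0.06), although Pf4 differed by 0.52 (SE 0.14). Astrocyte markers were higher in 5 of 13 (-0.17), microglia markers in 1 of 8 (-0.28) and cortical neuron markers in 8 of 9 (0.18), with Lamp5 at 1.05 (SE 0.25). The microglia median was 0.035 without wild type replicate 1, the array where those markers were high, and the astrocyte median was 0.035 without transgenic replicate 1. The pericyte, endothelial, choroid plexus and border macrophage medians also changed sign when single arrays were left out.

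**Figure D5:**
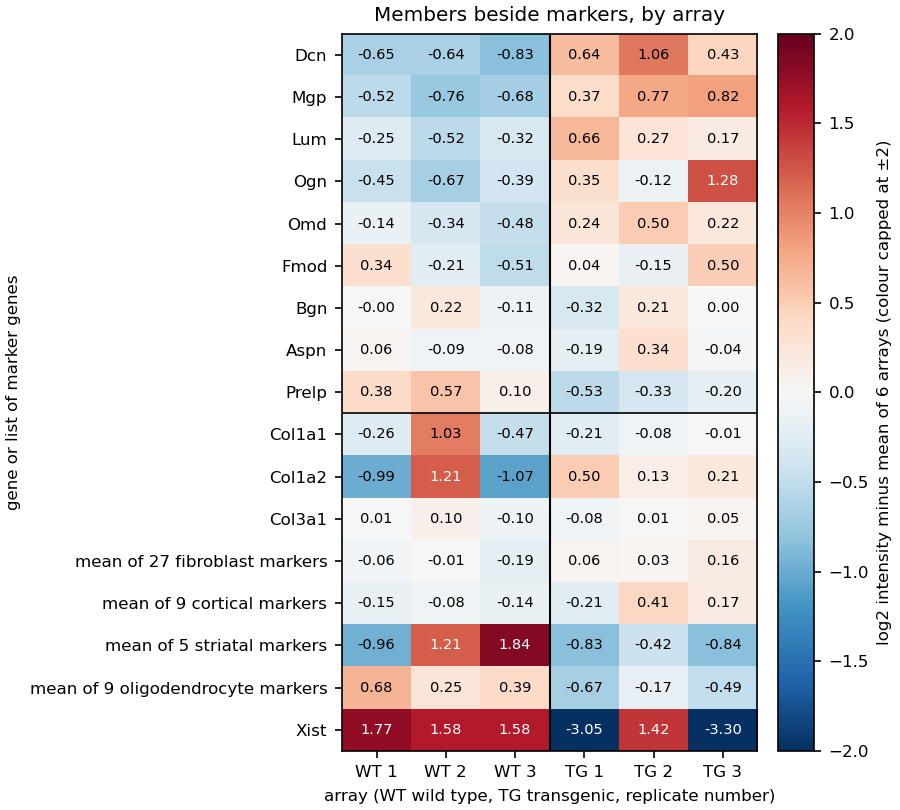
Log2 intensity minus the mean of the 6 arrays for the 9 genes, 3 collagen chains, the means of 4 marker lists and Xist on each array, with numbers printed in the cells and colours capped at ±2. Dcn and Mgp follow the genotype on every array, Col1a1 and Col1a2 peak in wild type replicate 2, striatal markers peak in wild type replicates 2 and 3, and Xist is low in transgenic replicates 1 and 3.

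Profiles most like those of Dcn and Mgp were found by the root mean square difference between gene-centred log2 values over the 6 arrays. All these values share the same arrays, and Dcn and Mgp were chosen for their group difference. Nearest to Dcn outside the set were Vip (0.21), Hsd3b3 (0.25), Olfr869 (0.31), Gm20063 (0.33), Timm9 (0.33) and Zfp943 (0.33). Nearest to Mgp were Gm12371 (0.20), A830009L08Rik (0.23), Vip (0.23), Exph5 (0.24), Cntn6 (0.24) and Nlrp4g (0.25). Hsd3b3, Olfr869, Zfp943 and Nlrp4g belong to multigene families whose copies can share probes, and their values are uncertain. Within the set, Mgp lay 0.25 from Dcn, the position 2 among 22179 other genes, Omd was at position 53, Lum at 100 and Ogn at 3287. Seen from Mgp, Dcn was at position 6, Omd at 51, Lum at 136 and Ogn at 197, whereas Prelp was at 21697.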

How the data were processed

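The authors deposited intensities. The submitters' processing notes name RMA and Affymetrix Expression Console as the tools. RMA corrects background, equalises the arrays and summarises probes. Its output is usually log2, but the deposited intensities were linear (array medians 40.4 to 48.3), so they were turned to log2 with no pseudocount. The sources used here give no tool version and no genome build, and no detection calls or scan dates were used. Each column was matched to its sample by accession and each sample to its group by title.

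Of 41345 probe sets 23521 had 1 gene symbol in the platform annotation, 1814 had more and 16010 were unnamed. Genes were read from probe sets with 1 symbol, by the highest mean over the 6 arrays. All 41345 probe sets entered limma 3.58.1 in R 4.3.3 (lmFit, eBayes, two-sided, Benjamini-Hochberg over all probe sets), without covariates. SEs are from this fit. The fit was also run on simulated data with the same spread in both groups. Such data cannot show whether the SEs hold where the spread differs, as it did between these groups. The number of arrays limits the precision, with a median SE of 0.19.

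The members and lists were chosen with earlier results of these data known. The 25 lists held 286 genes, 264 of them measured; some genes are in more than 1 list. They are described by counts and medians. The rule for named genes took all members and up to 3 genes of each list by unadjusted p. It also took the 6 nearest to Dcn and to Mgp. Further list genes were named after their values were seen, for a known role or for their place in the list. Among them were Col1a1, Col1a2, Col3a1, Aldh1a2, Crabp2, Osr1, Slc47a1, Lama1, Slc6a13, Fbln1, Slc13a3 and Gfap. Of the marker lists of other cells few genes are named. Pf4 and Lamp5 are tied to no member. Each had the smallest unadjusted p in limma and the largest positive difference of its list. Alternatives covered normalization, dim probe sets, a log offset, left-out arrays, the replicate block, sex, array weights and the probe set per gene.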

Additional observations from a re-analysis of the deposited data

How the results depend on the processing

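Dcn, Mgp, Lum, Ogn and Omd kept a positive and Prelp a negative difference under every alternative in which they were measured. Where an alternative only left out or reweighted arrays, or added the replicate block, this sign was fixed in advance, since the groups of these genes did not overlap. Bgn, Aspn and Fmod changed sign under 4, 2 and 3 of their alternatives. The median difference of the members, 0.64, was 0.38 among the female arrays and with sex as a covariate, 0.41 with log2(value + 16), and 0.26 among probe sets brighter than the median, which left 5 members, 3 of them higher and 3 without overlap. Leaving out 1 array gave medians of 0.55 to 0.73, 6 to 8 members higher and 6 to 7 without overlap. With array weights, where transgenic replicate 3 had a weight of 7.67 and the other transgenic arrays 0.26 and 0.28, Ogn differed by 1.73 and Dcn by 1.15.

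Same-numbered arrays had correlations of deviations from group means of 0.01, -0.10 and -0.07 over all probe sets. These values show no strong shared shift, but they cannot show whether lesions of the same number were handled as pairs. With the replicate block the differences were by design those of the plain fit (median 0.64), since each block held 1 array of each group. In that fit 0 probe sets passed the adjusted threshold and 2999 had an unadjusted p under 0.05.

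Over all probe sets, 0 passed the adjusted threshold and 3668 the unadjusted one. The counts were 2611 and 10793 with array weights, 1481 and 8604 with sex as a covariate, and 1843 and 10602 among the female arrays, whose lone transgenic array is assumed to vary like the others. With wild type replicate 1 as the only control, added after seeing the data, 1470 had an unadjusted p under 0.05, and 2243 among brighter probe sets, where fewer were tested. Leaving out 1 array gave 0 to 335 adjusted and 2031 to 5168 unadjusted calls: 335 without transgenic replicate 2, and 2031 and 2253 unadjusted without wild type replicates 1 and 2. Values near or under the array median, as for Lum, Ogn, Omd and Aspn, are the least certain.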
